A study of Mus musculus with 14 samples.

Results

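The dual-specificity phosphatases that switch off MAP kinases were followed in cultured mouse cortical neurons before and after depolarisation. The 10 genes Dusp1, Dusp2, Dusp4, Dusp5, Dusp6, Dusp7, Dusp8, Dusp10, Dusp14 and Dusp16 were taken by symbol from 52459 gene symbols, and all 10 were among the 17732 genes that passed a filter on low counts. RNA came from 14 libraries of primary cortical neurons from E16.5 mouse embryos. SE neurons carried the knock-in S1382E of BRG1, the ATPase subunit that drives BAF chromatin remodelling, and gave 2 libraries after KCl and 2 at basal. SA neurons carried S1382A and likewise gave 2 libraries after KCl and 2 at basal. Wild-type littermates gave 1 KCl and 1 basal library for the SE line and 2 of each for the SA line. Every culture was silenced on day 5 with 1 µM TTX, a sodium channel blocker, and 100 µM APV, an NMDA receptor antagonist. On day 6, KCl libraries received 50 mM KCl for 1 h, whereas basal libraries did not. A line below means a mutant together with its wild-type littermates, so the SE line had 6 libraries and the SA line 8. The labels do not say whether replicates came from separate embryos or litters, so p-values measure the spread between these samples, which may be technical.

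MAP kinases (ERK, JNK and p38) are switched on by phosphorylation of a threonine and a tyrosine in their activation loop, and these phosphatases remove both phosphates. In neurons, depolarisation lets calcium in, calcium entry activates ERK, and several of the phosphatase genes are themselves transcribed in response, which closes a negative feedback loop. Dusp1, Dusp2, Dusp4 and Dusp5 encode inducible nuclear enzymes, Dusp6 and Dusp7 encode cytosolic enzymes that prefer ERK, and Dusp8, Dusp10 and Dusp16 encode enzymes that prefer JNK and p38. Dusp14 encodes a small atypical enzyme without the domain that docks MAP kinases.

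Libraries held 22625916 to 23096206 estimated counts, and 5.91% to 8.31% of counts came from the mitochondrial genome. The first principal component of log2 CPM (a gene's count relative to its library's total, after scaling between libraries) held 65.5% of the variance and separated the lines. Smarca4, which encodes BRG1, lay between 373 and 504 CPM, with an adjusted p of at least 0.381 in all 10 comparisons; a changed codon need not alter its level. Markers of glutamatergic neurons were present in every library, and those of GABAergic neurons, progenitors and glia as well. Within both lines, the summed level of 1 of 8 marker lists did not overlap between treatments. This was the GABAergic list of 8 genes, at 216 to 251.4 CPM after KCl and 164 to 179 CPM at basal in the SE line, and at 575 to 642 CPM after KCl and 483 to 535 CPM at basal in the SA line. Its part in the results was not tested.

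Both libraries numbered 1 of the SA-line wild type stood apart from the other 6 libraries of that line. On the second principal component they lay at -56.7 after KCl and -44.8 at basal, against 5.40 to 38.5 in the others. At basal this library had the lowest level in its line of Slc17a7, a glutamatergic marker, at 24.7 CPM (highest 374 CPM), and the highest of the progenitor marker Vim (2142 CPM) and the proliferation marker Mki67 (260.2 CPM). Among the SA-line basal libraries it was the highest for 7 of the 10 phosphatase genes and the lowest for the other 3. Results of the SA line are therefore also given without this pair of libraries.

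After 1 h of KCl, transcripts of the nuclear phosphatase genes Dusp1, Dusp4 and Dusp5 and of the cytosolic ERK phosphatase gene Dusp6 were higher in both lines. In the SE line 5 of the 10 genes passed the test as higher (Dusp1, Dusp4, Dusp5, Dusp6 and Dusp14), where 1.82% of all genes passed as higher and 0.998% as lower. In the SA line 5 passed as higher (Dusp1, Dusp4, Dusp5, Dusp6 and Dusp10), against 1.38% of all genes as higher and 0.649% as lower (2.02% in either direction, and 2.81% in the SE line). In this fit 0 of the 10 genes passed as lower in either line. Without both number 1 libraries of its wild type, the SA line kept the same 5 calls, at log2 2.93 for Dusp1, 2.86 for Dusp5, 1.88 for Dusp6, 1.25 for Dusp10 and 0.63 for Dusp4 (adjusted p of at most 0.00739), and in the SE line Dusp8 and Dusp10 passed besides the 5. The median log2 change of the 10 genes was 1.35 in the SE line and 0.70 in the SA line, where the medians over all genes were 0.01 in the SE line and 0.00 in the SA line. The test was edgeR's quasi-likelihood test with Benjamini-Hochberg adjustment over all genes, and a gene passed at an adjusted p under 0.05. Each log2 change is given ± the standard error of that model. The 95% intervals below use the 6 residual degrees of freedom of the fit and are wider than the test's p-values imply.

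Dusp1 (chromosome 17, 26505590 to 26562128, minus strand) encodes MKP-1, an immediate early phosphatase of p38, JNK and ERK. In the SE line its level was 226 and 216 CPM in SE and 203 CPM in wild type after KCl, against 11.4 and 11.6 CPM in SE and 13.2 CPM in wild type at basal. In the SA line it was 105 and 96.8 CPM in SA and 95.3 and 85.8 CPM in wild type after KCl, against 10.6 and 15.4 CPM in SA and 28.3 and 11.4 CPM in wild type at basal. All KCl libraries stood above all basal libraries in each line, and the highest basal value belonged to wild-type replicate 1 of the SA line. The log2 change was 4.16 ± 0.301 in the SE line (17.8-fold, adjusted p = 3.70e-05) and 2.57 ± 0.244 in the SA line (5.94-fold, adjusted p = 3.81e-04).

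Dusp5 (chromosome 19, 53529109 to 53542431, plus strand) encodes a nuclear phosphatase that acts on ERK and also anchors it. SE-line libraries held 181 and 173 CPM in SE and 161 CPM in wild type after KCl, against 7.44 and 9.97 CPM in SE and 9.09 CPM in wild type at basal. SA-line libraries held 20.8 and 20.9 CPM in SA and 20.6 and 18.9 CPM in wild type after KCl, against 2.78 and 3.08 CPM in SA and 7.92 and 2.53 CPM in wild type at basal. The groups did not overlap in either line, and every SE-line KCl value was above every SA-line one. The log2 change was 4.28 ± 0.317 in the SE line (19.4-fold, adjusted p = 4.46e-05), and 2.37 ± 0.272 in the SA line (5.17-fold, adjusted p = 0.00133).

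Dusp4 (chromosome 8, 34807297 to 34819894, plus strand) encodes MKP-2, a nuclear phosphatase of ERK and JNK. After KCl the SE line was at 58.5 and 54.9 CPM in SE and 50.0 CPM in wild type, against 11.5 CPM in both SE libraries and 13.2 CPM in wild type at basal. The SA line was at 60.3 and 52.1 CPM in SA and 77.5 and 56.9 CPM in wild type after KCl, against 35.4 and 36.8 CPM in SA and 41.5 and 37.2 CPM in wild type at basal. KCl values of the lines overlapped, whereas every basal value of the SA line was above every basal value of the SE line. Its log2 change was 2.18 ± 0.128 in the SE line (4.52-fold, adjusted p = 8.33e-06) and 0.71 ± 0.104 in the SA line (1.63-fold, adjusted p = 0.00635). With the SA line fitted alone, the SA-line value no longer passed (adjusted p = 0.0513).

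Dusp2 (chromosome 2, 127336159 to 127338376, plus strand) encodes PAC-1, a nuclear phosphatase best known from activated lymphocytes. Unlike the other nuclear members, it did not pass the test after KCl in either line. The SE line held 7.97 and 6.26 CPM in SE and 7.84 CPM in wild type after KCl, against 8.07 and 10.3 CPM in SE and 9.22 CPM in wild type at basal. The SA line held 4.14 CPM in both SA libraries and 2.98 and 3.86 CPM in wild type after KCl, against 5.09 and 3.98 CPM in SA and 3.10 and 4.11 CPM in wild type at basal. Its log2 values were -0.32 in the SE line (95% interval -0.79 to 0.14) and -0.10 in the SA line (-0.53 to 0.32).

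**Figure D1:**
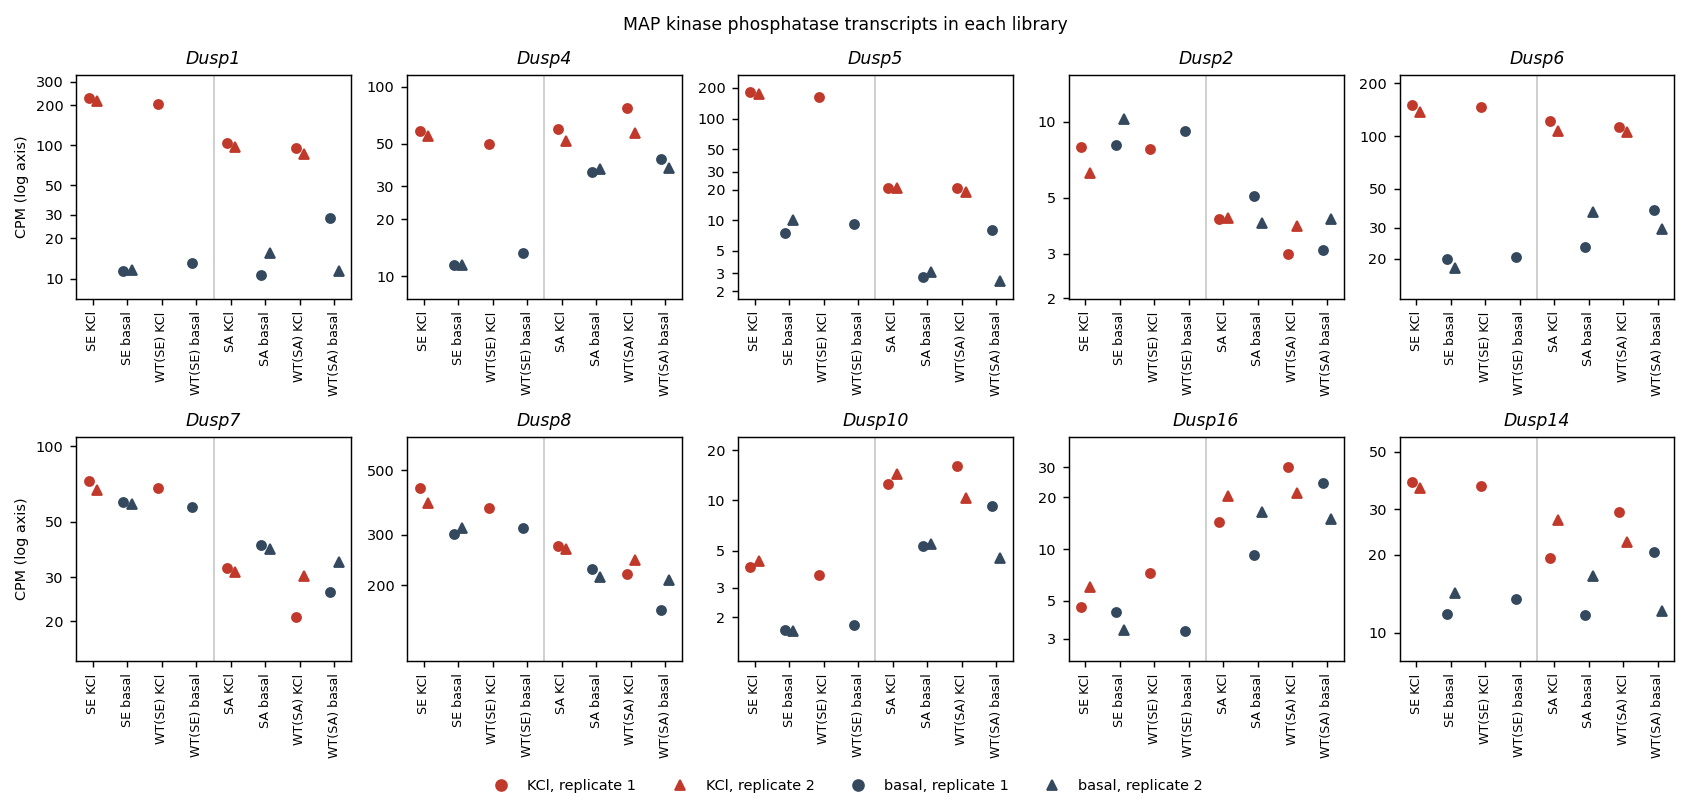
CPM of each phosphatase gene (log axis) in each library, with the SE line left and the SA line right of the grey line, KCl in red and basal in dark grey, and replicates 1 and 2 as circles and triangles; WT(SE) and WT(SA) are the wild-type littermates of each line. Dusp1, Dusp4, Dusp5 and Dusp6 lie higher after KCl in every culture group, for example Dusp1 at 226 and 216 CPM in SE after KCl and 11.4 and 11.6 CPM at basal.

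Of the cytosolic members, Dusp6 rose in both lines and Dusp7 passed in neither. Dusp6 (chromosome 10, 99263231 to 99267489, plus strand) encodes MKP-3, a feedback phosphatase specific for ERK. In the SE line it was at 149.7 and 136 CPM in SE and 147 CPM in wild type after KCl, against 19.98 and 17.8 CPM in SE and 20.6 CPM in wild type at basal. In the SA line the level was 121 and 107 CPM in SA and 112 and 106 CPM in wild type after KCl, against 23.2 and 37.2 CPM in SA and 37.8 and 29.6 CPM in wild type at basal. The groups did not overlap within either line. The log2 change was 2.89 ± 0.177 in the SE line (7.43-fold, adjusted p = 1.15e-05) and 1.81 ± 0.147 in the SA line (3.50-fold, adjusted p = 1.34e-04). Dusp7 (chromosome 9, 106368632 to 106375724, plus strand) encodes MKP-X, the closest relative of MKP-3 among these enzymes. Dusp7 was at 66.8 to 72.9 CPM after KCl and 57.3 to 59.8 CPM at basal in the SE line, and at 20.9 to 32.5 CPM after KCl and 26.2 to 40.4 CPM at basal in the SA line. KCl values lay above basal values in the SE line and overlapped them in the SA line. Dusp7 did not pass in either line, with log2 values of 0.24 in the SE line (95% interval -0.11 to 0.59) and -0.28 in the SA line (-0.59 to 0.03).

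Among the JNK- and p38-directed members, Dusp10 had the largest log2 values. Dusp10 (chromosome 1, 184013302 to 184075636, plus strand) encodes MKP-5. It was at 3.99 and 4.32 CPM in SE and 3.58 CPM in wild type after KCl, against 1.67 and 1.64 CPM in SE and 1.78 CPM in wild type at basal. The SA line was at 12.6 and 14.4 CPM in SA and 16.1 and 10.3 CPM in wild type after KCl, against 5.35 and 5.48 CPM in SA and 9.23 and 4.52 CPM in wild type at basal. KCl and basal values did not overlap in either line. The log2 changes were close in size, 1.22 ± 0.286 in the SE line (2.33-fold, adjusted p = 0.0608, not passing) and 1.13 ± 0.223 in the SA line (2.18-fold, adjusted p = 0.0337, passing). The SA-line call was lost in 11 of 22 alternatives. Of these, 9 left out 1 library, namely each of the 4 SA and the 4 SE libraries and KCl replicate 1 of the SA-line wild type (adjusted p from 0.0687 to 0.143), and the others were the SA line fitted alone (adjusted p = 0.147) and scaling by library totals (adjusted p = 0.0525). The SE-line value passed in 9 of 22 alternatives.

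Dusp8 (chromosome 7, 142079490 to 142095843, minus strand), whose product is known from brain and heart, had the most counts of the 10 genes in every library. Its level was 371 to 436 CPM after KCl and 301 to 317 CPM at basal in the SE line, and 220.0 to 274 CPM after KCl and 165 to 229 CPM at basal in the SA line. It did not pass in either line (log2 0.35 with a 95% interval of 0.08 to 0.63 and adjusted p = 0.193 in the SE line, and 0.30 with an interval of 0.06 to 0.54 and adjusted p = 0.262 in the SA line). Dusp16 (chromosome 6, 134715468 to 134792625, minus strand) encodes MKP-7, a JNK phosphatase that shuttles between nucleus and cytoplasm. Dusp16 was at 4.60 to 7.24 CPM after KCl and 3.33 to 4.28 CPM at basal in the SE line, and at 14.5 to 30.2 CPM after KCl and 9.22 to 24.3 CPM at basal in the SA line. Both genes had higher KCl than basal values in all libraries of the SE line and overlapping ones in the SA line. Dusp16 did not pass either, at log2 0.68 (95% interval -0.05 to 1.42) in the SE line and 0.41 (-0.17 to 0.99) in the SA line. By edgeR its unadjusted p in the SE line was 0.0468 (adjusted p = 0.421), although the interval spans 0.

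The atypical member Dusp14 (chromosome 11, 84048041 to 84069261, minus strand) rose in the SE line. It was at 38.1 and 36.3 CPM in SE and 36.9 CPM in wild type after KCl, against 11.8 and 14.3 CPM in SE and 13.5 CPM in wild type at basal. In the SA line it was at 19.4 and 27.3 CPM in SA and 29.3 and 22.5 CPM in wild type after KCl, against 11.7 and 16.51 CPM in SA and 20.6 and 12.2 CPM in wild type at basal. The groups overlapped in the SA line through the basal value of wild-type replicate 1. The log2 change was 1.49 ± 0.229 in the SE line (2.81-fold, adjusted p = 0.00665), and without SE basal replicate 1 it no longer passed (1.41, adjusted p = 0.0681). In the SA line the value was 0.70 ± 0.195 (1.62-fold, adjusted p = 0.157), and it passed in 4 of 22 alternatives, among them DESeq2 (adjusted p = 0.0426), no filter on low counts (0.0469) and leaving out basal replicate 1 of the wild type (0.0449).

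**Figure D2:**
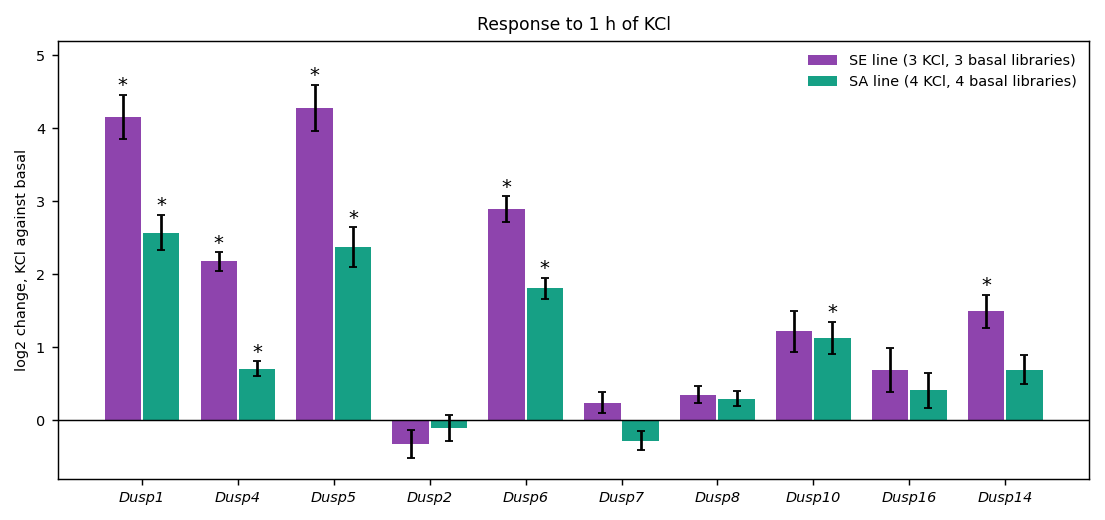
Log2 change of each phosphatase gene after KCl against basal in the SE line (purple) and the SA line (green), with bars for the model estimate, error bars for its standard error and asterisks at an adjusted p under 0.05. Dusp5 and Dusp1 have the longest bars in both lines, 4.28 and 4.16 in the SE line and 2.37 and 2.57 in the SA line, and Dusp2 and Dusp7 lie near 0.

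Of 5 transcripts of Dusp14, which were looked at after the gene's values were seen, the 2 with the highest TPM differed in how far they moved. Dusp14-203, which starts at position 84067080, was at 19.6 to 27.9 TPM (transcript abundance per length, scaled to the library) after KCl and 3.61 to 4.94 TPM at basal in the SE line, and at 8.29 to 16.7 TPM after KCl and 3.84 to 5.45 TPM at basal in the SA line. Dusp14-202, which starts upstream at 84068357, was at 15.1 to 19.2 TPM after KCl and 8.88 to 11.1 TPM at basal in the SE line, and at 13.4 to 20.7 TPM after KCl and 11.3 to 19.6 TPM at basal in the SA line. The ratio of mean TPM after KCl to that at basal was 5.33 for Dusp14-203 and 1.68 for Dusp14-202 in the SE line, and 2.67 and 1.15 for these transcripts in the SA line. A less abundant transcript, starting at 84068579, was at 5.46 to 9.41 TPM after KCl and 0.542 to 1.65 TPM at basal in the SE line, a ratio of means of 7.37, and at 2.18 to 4.43 TPM after KCl and 0 to 2.51 TPM at basal in the SA line, where the values overlapped (ratio 4.01). The remaining 2 stayed below 5 TPM in every library. These are model-based assignments of reads between overlapping transcripts, given without a test.

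**Figure D3:**
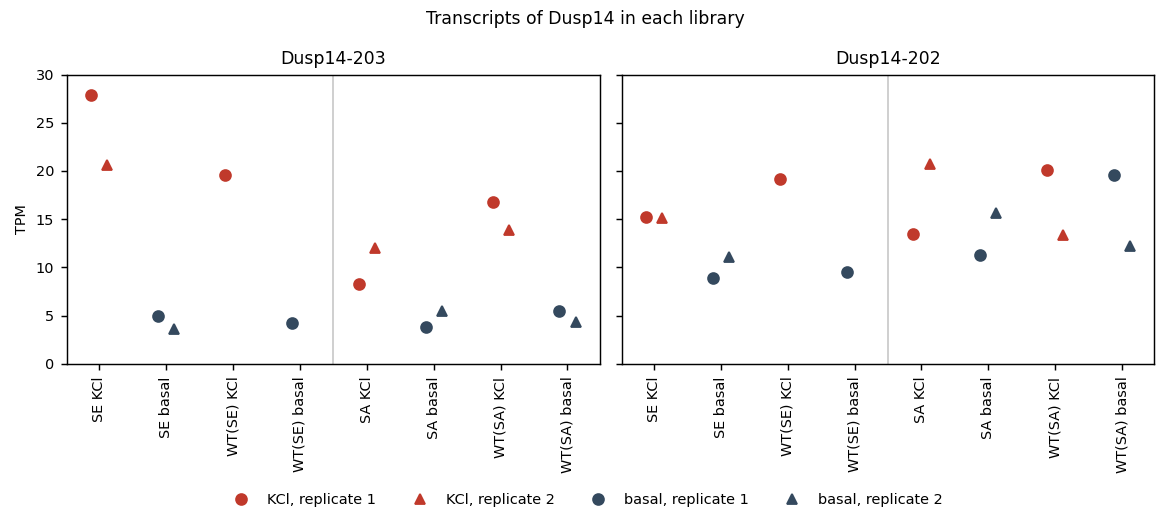
TPM of Dusp14-203 and Dusp14-202 in each library, with colours and symbols for treatment and replicate and the SE line left of the grey line. Dusp14-203 lies at 19.6 to 27.9 TPM after KCl and 3.61 to 4.94 TPM at basal in the SE line, whereas Dusp14-202 values of the SA line overlap between treatments.

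Sequence upstream of the RefSeq start was at hand for 9 of the 10 genes (GRCm38.p6, 250 bases before the start), and Dusp4 was not among them. It was searched on both strands for the cAMP response element TGACGTCA bound by CREB, its half-site TGACG, the AP-1 site TGANTCA, the EGR site GCGNGGGCG and the CArG box bound by SRF. The window of Dusp14 lies before the start of Dusp14-202, so the sequence before the start of Dusp14-203 was not searched. RefSeq starts need not match the gene ends given above, and that of Dusp8 lies inside its gene interval. Each full response element also holds the half-site on either strand. The full element lay in 1.55% of 32544 such windows and in those of Dusp1 (1 match) and Dusp8 (2 matches). The half-site lay in 17.8% of windows and in those of Dusp1, Dusp5, Dusp8 and Dusp16. The CArG box lay in 1.48% of windows and, as 2 abutting matches, in that of Dusp5. The EGR site lay in 4.74% of windows and in those of Dusp2 and Dusp16, while the AP-1 site lay in 6.73% of windows and in 0 of the 9. The stretches with the matches of Dusp1 and Dusp5, which rose most after KCl, and of Dusp8, which did not pass the test, are shown 5′ to 3′ on the gene's strand with the matches in capitals. They cover chr17:26508596-26508675 on the minus strand, chr19:53529051-53529106 on the plus strand and chr7:142095328-142095403 on the minus strand.
Dusp1: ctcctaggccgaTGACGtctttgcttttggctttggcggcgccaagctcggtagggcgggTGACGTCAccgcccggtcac
Dusp5: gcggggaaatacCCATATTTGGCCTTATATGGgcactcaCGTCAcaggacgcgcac
Dusp8: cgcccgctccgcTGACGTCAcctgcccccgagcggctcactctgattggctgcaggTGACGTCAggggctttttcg
In Dusp1 the full element lies at bases -143 to -136 from the start and a further half-site at -191 to -187. In Dusp5 the CArG boxes lie at -82 to -73 and -72 to -63, with a half-site at -55 to -51. The matches of Dusp8 lie at -107 to -100 and -63 to -56. A match describes letters, not binding.

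Of the other genes of the pathway, some feedback inhibitors at the receptor and Ras level rose, and 0 of the kinases passed. Of 11 tested inhibitors of that kind 6 rose in the SE line (median log2 0.79) and 4 in the SA line (median 0.50), against 1.82% of all genes in the SE line and 1.38% in the SA line. The members that did not pass in either line were Spred1, Spred2, Spred3, Rasa1 and Nf1, with log2 values between -0.18 and 0.18. The gene Errfi1, whose product restrains EGF receptors, rose 3.38-fold in the SE line and 2.44-fold in the SA line. Spry2, a Sprouty protein that dampens growth factor signals, rose 3.88-fold in the SE line and 2.13-fold in the SA line. The regulators of G protein signalling Rgs2 and Rgs4 rose 5.85-fold and 2.56-fold in the SE line and 2.62-fold and 2.70-fold in the SA line. Without SE basal replicate 1, the SE-line call of Rgs4 was lost (adjusted p = 0.0522). Of 16 transcripts known to depend on ERK, 10 rose in the SE line (median 2.46) and 8 in the SA line (median 0.93), beside the same shares of all genes. They include Egr1, an immediate early factor (110.1-fold in the SE line and 31.0-fold in the SA line), and Arc, a synaptic immediate early gene (158-fold in the SE line and 39.3-fold in the SA line). Myc, Etv1, Etv4, Etv5, Phlda1 and Ccnd1 passed in neither line, with log2 values between -0.21 and 0.63. Ier3 and Klf2 passed in the SE line only, and Klf2 was at -0.43 in the SA line. By edgeR, 0 of 22 MAP kinases and upstream kinases passed in either line (1 in the SE line and 0 in the SA line at an unadjusted p under 0.05), and DESeq2 called 0 in both. The count was also 0 of 17 for the other dual-specificity phosphatases (2 in the SE line and 1 in the SA line unadjusted, 0 by DESeq2) and 0 of 3 for the tyrosine phosphatases of MAP kinases (0 unadjusted, 0 by DESeq2), by edgeR in both lines. The inhibitor and ERK lists were chosen with results of these data known, so their direction is no independent evidence.

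Basal levels differed between the lines for most of the phosphatases. Of the 10 genes 8 passed in the SE line against the SA line, 4 higher and 4 lower, where 47.8% of all genes passed (21.8% higher and 26% lower). With scaling by library totals the 10 genes kept that split, while over all genes the share of passing genes that were higher was 33.7%, against 45.6% with TMM scaling. Dusp2, Dusp5, Dusp7 and Dusp8 were higher in the SE line. Dusp16, Dusp10, Dusp4 and Dusp6 were lower. Dusp2 was at 8.07 to 10.3 CPM in the SE line and 3.10 to 5.09 CPM in the SA line (log2 1.18 ± 0.179, adjusted p = 5.61e-04), with no overlap. Dusp5 was at 7.44 to 9.97 CPM in the SE line and 2.53 to 7.92 CPM in the SA line (1.17 ± 0.293, adjusted p = 0.00873), with an overlap through wild-type replicate 1 of the SA line. Dusp7 differed by 0.76 ± 0.134 and Dusp8 by 0.61 ± 0.104 (adjusted p = 0.00140 and 0.00105), both without overlap. Among the lower genes, Dusp16 was at 3.33 to 4.28 CPM in the SE line and 9.22 to 24.3 CPM in the SA line (-2.12 ± 0.286, adjusted p = 2.88e-04). Dusp10 was at 1.64 to 1.78 CPM in the SE line and 4.52 to 9.23 CPM in the SA line (-1.84 ± 0.271, adjusted p = 4.69e-04). Dusp4 differed by -1.65 ± 0.121 (adjusted p = 1.03e-05) and Dusp6 by -0.72 ± 0.160 (adjusted p = 0.00489), again without overlap. Dusp1 (-0.42, 95% interval -1.06 to 0.22) and Dusp14 (-0.20, -0.73 to 0.32) did not pass. Between wild-type libraries alone, Dusp5 (0.79, adjusted p = 0.218) and Dusp6 (-0.71, adjusted p = 0.0663) no longer passed. Of the 21 alternatives, Dusp1 passed as lower in 1, when basal replicate 2 of the SA-line wild type was left out (adjusted p = 0.00327). Without both number 1 libraries of that wild type the same 8 genes passed in the same directions, Dusp5 at 1.69 and Dusp10 at -1.54, while Dusp1 was at -0.0166 and Dusp14 at 0.0088.

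Cell type markers moved with this difference. In basal libraries, summed markers were at 2362 to 2456 CPM in the SE line and 577 to 969 CPM in the SA line for glutamatergic neurons (8 genes). GABAergic markers were at 164 to 179 CPM in the SE line and 483 to 535 CPM in the SA line (8 genes). The 9 progenitor markers summed to 305 to 361 CPM in the SE line and 1063 to 3334 CPM in the SA line, and the 7 astrocyte markers to 656 to 701 CPM in the SE line and 1864 to 2691 CPM in the SA line. Oligodendrocyte lineage (8 genes, 127 to 141 CPM in the SE line and 593 to 740.1 CPM in the SA line), microglia (7 genes, 17.6 to 26.0 CPM in the SE line and 77.1 to 89.2 CPM in the SA line), endothelial and mural (8 genes, 25.3 to 36.3 CPM in the SE line and 193 to 655 CPM in the SA line) and meningeal markers (8 genes, 20.2 to 32.4 CPM in the SE line and 100.3 to 214 CPM in the SA line) were lower in every SE-line library as well. Single markers did not all follow these sums. Acta2 alone held 17.2 to 26.0 CPM in the SE line and 170 to 589 CPM in the SA line of the endothelial and mural sum. The endothelial markers Pecam1 (0.505 to 0.815 CPM in the SE line and 0.415 to 0.621 CPM in the SA line), Tek and Cldn5 overlapped, and Cldn5 was at 0 in at least 1 basal library of each line. The intermediate progenitor marker Eomes (14.1 to 21.1 CPM in the SE line and 1.47 to 2.78 CPM in the SA line) and the myelin gene Mog (3.96 to 4.65 CPM in the SE line and 2.19 to 3.44 CPM in the SA line) were higher in every SE-line library. The part of cell composition in the basal differences and in the differences of response was not tested. In bulk RNA, fewer cells of a type and less RNA per cell cannot be told apart. The labels give no date or batch, so the line and any difference in preparation cannot be told apart either.

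Other genes of the pathway passed at basal at shares that can be read only against the 47.8% of all genes. Of the tyrosine phosphatases of MAP kinases, Ptpn5 (log2 0.72) and Ptprr (0.78) of 3 were higher in the SE line. Of 17 other dual-specificity phosphatases 7 were higher and 4 lower, and of 22 MAP kinases and their kinases 4 were higher and 3 lower, where 21.8% of all genes were higher and 26% lower.

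The rise after KCl was steeper in the SE line for Dusp4, the 1 of the 10 genes whose difference in response passed (over all genes 0.135% passed as higher and 0.0169% as lower, 0.152% together). Its response was larger by 1.47 ± 0.162 on the log2 scale (adjusted p = 0.00661). Its KCl levels overlapped between the lines and its basal level was lower in the SE line, as given above. This call rested on few libraries: without SE basal replicate 1 the adjusted p was 0.0613, without SE basal replicate 2 it was 0.0573, and between wild-type libraries alone it was 1.00 with a difference of 1.14. Dusp5 (1.91 ± 0.395, adjusted p = 0.253), Dusp1 (1.59 ± 0.358, adjusted p = 0.372) and Dusp6 (1.09 ± 0.220, adjusted p = 0.230) had 95% intervals above 0 but did not pass over all genes. DESeq2 called all 3 besides Dusp4. Leaving out 1 basal library of the SA line added calls: Dusp6 without SA replicate 1, Dusp5 without wild-type replicate 1, and Dusp1 and Dusp5 without wild-type replicate 2. Without both number 1 libraries of the SA-line wild type, Dusp4 (1.55, adjusted p = 0.00158), Dusp5 (1.42, adjusted p = 0.0173) and Dusp1 (1.22, adjusted p = 0.0428) passed. Dusp14 (0.80) and Dusp7 (0.52) also had intervals above 0, whereas those of Dusp2, Dusp8, Dusp10 and Dusp16 spanned 0, and none of these 6 passed. Of the 16 ERK-dependent transcripts, 4 had a larger response in the SE line: Egr1, Fosl1, Arc and Ier2, by 1.83, 1.75, 2.01 and 1.60. All 4 lost the call between wild-type libraries alone (adjusted p from 0.217 to 0.846), and Ier2 also in 8 of the 14 fits without 1 library.

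**Figure D4:**
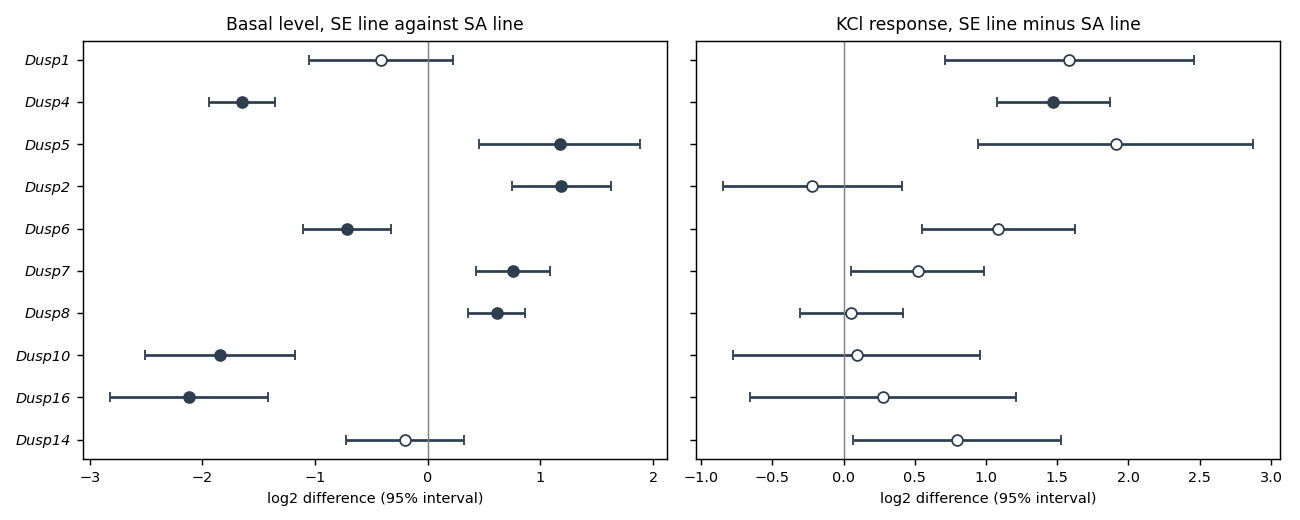
Log2 difference between the SE line and the SA line for each phosphatase gene, in the basal level (left) and in the response to KCl (right), as points with 95% intervals, filled at an adjusted p under 0.05. At basal 8 points are filled, 4 on each side of 0; on the right only the point of Dusp4 is filled, at 1.47.

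Per transcript length, the pool of phosphatase mRNA changed its make-up as well as its size. The TPM of the 10 genes summed to 597 ± 31.4 after KCl and 178 ± 5.43 at basal in the SE line (SD, n = 3 each), and to 355 ± 24.6 after KCl and 184 ± 11.6 at basal in the SA line (SD, n = 4 each). Dusp8 alone held 19.2% of the pool after KCl and 50.3% at basal in the SE line, and 22.8% after KCl and 37.8% at basal in the SA line. The 4 nuclear inducible genes held 50.2 ± 0.853% after KCl and 16.1 ± 0.906% at basal in the SE line, and 37.1 ± 1.21% after KCl and 23.4 ± 4.05% at basal in the SA line. The cytosolic pair Dusp6 and Dusp7 held 21.6% after KCl and 23.3% at basal in the SE line and 25.8% after KCl and 22.1% at basal in the SA line. Shares of the nuclear genes did not overlap between treatments within either line, and no test was made on them.

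The order of TPM levels differed with treatment. After KCl Dusp1 was first in the SE line at 154 to 174 TPM, followed by Dusp8, Dusp5, Dusp6, Dusp14, Dusp7, Dusp4, Dusp2, Dusp10 and Dusp16. Of these neighbours, Dusp5 and Dusp6, Dusp7 and Dusp4, and Dusp10 and Dusp16 overlapped. After KCl in the SA line Dusp8, Dusp1 and Dusp6 led with overlapping levels, at 70.3 to 86.1 TPM. They were followed by Dusp4 and Dusp14, Dusp7 and Dusp5, and Dusp16 and Dusp10, each pair overlapping, and by Dusp2. At basal Dusp8 was first in both lines, at 87.9 to 91.8 TPM in the SE line and 53.7 to 80.5 TPM in the SA line, above the next gene in every library. In the SE line the basal order went on with Dusp7, Dusp14, Dusp6, Dusp1, Dusp2, Dusp4, Dusp5, Dusp16 and Dusp10, of which Dusp1 and Dusp2 overlapped. In the SA line the basal order below Dusp8 was Dusp4, Dusp6, Dusp14, Dusp7, Dusp1, Dusp16, Dusp2, Dusp10 and Dusp5, and all neighbours overlapped. Dusp5 held place 3 after KCl and place 8 at basal in the SE line, and place 7 after KCl (12.2 to 13.97 TPM) and place 10 at basal in the SA line.

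**Figure D5:**
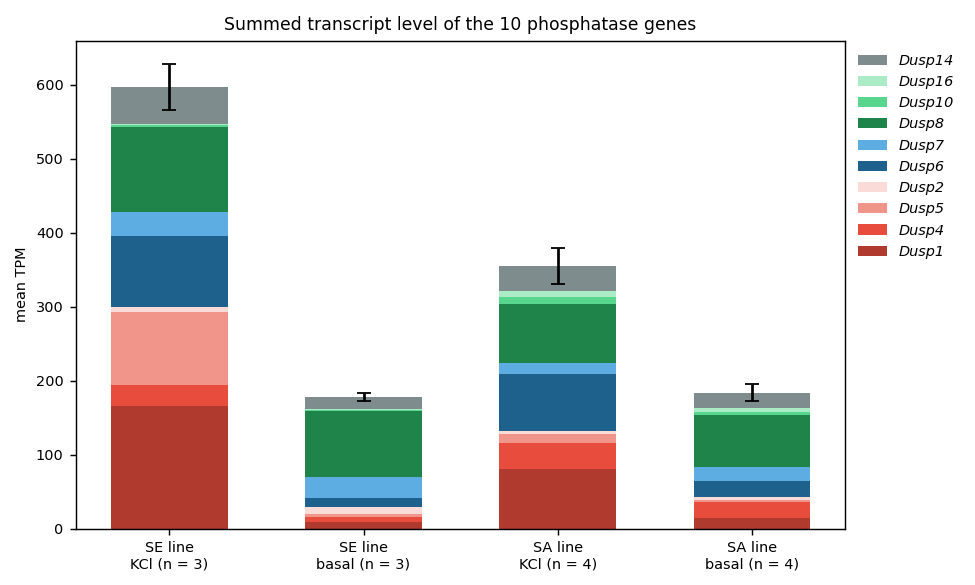
Mean TPM of the 10 phosphatase genes, stacked, after KCl and at basal in the SE line (n = 3 libraries each) and the SA line (n = 4 each), with the SD of the summed TPM as error bars. The stack reaches 597 after KCl and 178 at basal in the SE line and 355 after KCl and 184 at basal in the SA line.

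Whether the substitutions at residue 1382 altered these levels was asked within each line. By edgeR, 0 of the 10 genes passed between SE and its wild type or between SA and its wild type, at basal, after KCl or in the response, and 0% of all genes passed in each of these 6 comparisons. At an unadjusted p under 0.05 the count of the 10 genes was 0 in each comparison too, and DESeq2 called 0 of them. Over all genes, those unadjusted counts were 187 at basal, 240 after KCl and 159 in the response for SE, and 1279, 2040 and 122 in that sequence for SA. Without any difference, a share of 0.05 of the 17732 genes is expected. The SE counts and the SA response count lay far below that share, and the SA counts at basal and after KCl above it. Where the counts lay far below, the tests were conservative, and 0 of the 10 genes says little about an absence of change. DESeq2 called 0, 1 and 1 of all genes for SE, and 0, 64 and 0 for SA. The gene with the lowest p in SE against its wild type was Dusp4 at basal (log2 -0.21, 95% interval -0.67 to 0.26), Dusp16 after KCl (-0.45, -1.50 to 0.60) and Dusp4 in the response (0.39, -0.25 to 1.03), each with an adjusted p of 1.00. In SA against its wild type these were Dusp7 (0.38, -0.05 to 0.82) and Dusp5 (-0.84, -1.84 to 0.16) at basal, each with an adjusted p of 0.621. After KCl they were Dusp7 (0.32, -0.12 to 0.76, adjusted p = 0.489) and Dusp4 (-0.26, -0.62 to 0.10, adjusted p = 0.490). In the response they were Dusp5 (0.92, -0.39 to 2.23) and Dusp1 (0.76, -0.37 to 1.90), each with an adjusted p of 1.00. Dusp6, Dusp7 and Dusp8 had 95% intervals within 1 log2 unit of 0 in all 6 comparisons, and each of the other 7 genes had a wider one in at least 1. For Dusp4 this was by a narrow margin and in the SE response alone (-0.25 to 1.03), with intervals wider than the test's p-values imply. The values of Dusp5 and Dusp1 in SA against its wild type rested on basal replicate 1 of that wild type: without it Dusp5 was at 0.21 at basal, and the response differences were -0.13 for Dusp5 and -0.04 for Dusp1. In the SA line, most marker sums overlapped between SA and its wild type. With 2 libraries on each side, a lack of overlap is common by chance. It occurred for 2 lists. Meningeal markers were at 100.3 to 107 CPM in SA and 175 to 214 CPM in wild type at basal, and at 111 to 145 CPM in SA and 195 to 229 CPM in wild type after KCl. Glutamatergic markers after KCl were at 858 to 1041 CPM in SA and 640 to 854 CPM in wild type, a narrow gap. At basal they overlapped, at 751 to 969 CPM in SA and 577 to 760 CPM in wild type. Their part was not tested.

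Levels of the genes that rose most were closely related across libraries. With each library centred on the mean of its line, Pearson's r of log2 CPM over the 14 libraries was 0.996 between Dusp1 and Dusp5, 0.993 between Dusp1 and Dusp6, and 0.982 between Dusp5 and Dusp6. Values with Dusp4 were 0.943 for Dusp1, 0.950 for Dusp5 and 0.946 for Dusp6. Dusp7 had r between -0.526 and 0.502 with the other 9. Genes with a mean of at least 1 CPM were ranked, leaving out symbols of Gm followed by digits and those ending in Rik. Those most like Dusp1 were Btg2 (r = 0.998), an antiproliferative gene, and Maff (0.996), a small MAF factor. The gene most like Dusp5 was Rgs2 (0.997), and the one most like Dusp6 was Maff (0.997). The libraries share the contrast of KCl and basal, which any induced gene follows, so these values are descriptions.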

How the data were processed

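The 14 RNA-seq libraries were analysed from gene and transcript tables of estimated counts and TPM. Per the submitters' processing notes, kallisto 0.43.1 and the mouse build GRCm38 (mm10) were used; the strand setting was not given in the sources used here. The deposited estimated counts per gene equal the sums over 131100 transcripts, and 65.9678% of nonzero values are not whole, because reads shared by transcripts or paralogs were divided by a model. The deposited TPM values were scaled for transcript length by the authors' quantification and are used for levels between genes and for transcripts, without a test.

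Estimated counts were rounded and tested with edgeR 4.0.16 (R 4.3.3). Genes were kept by filterByExpr over 6 genotype and treatment combinations, scaled with TMM and fitted with 8 group means over all 14 libraries (6 residual degrees of freedom). P-values were adjusted over all 17732 genes by the Benjamini-Hochberg method. Line values are means that weight every library equally. The wild type of the SE line has 1 library per treatment, which is assumed to vary like the other groups. CPM uses TMM-scaled totals, and log2 CPM for principal components and correlations used a prior count of 2. The procedure was also run on simulated counts without a difference between lines or in spread between groups. That run does not show how it performs on these data. No 2 replicates of a group agreed within sampling noise, and the groups did not vary alike. Chi-square per gene between replicates, after KCl and at basal, was 8.39 and 7.89 in SE and 16.2 and 28.6 in SA. In the SA-line wild type it was 54.7 and 59.2. The fit pooled the spread of all groups, so SE-line tests also drew on the larger spread of the SA line. Estimated counts of 22625916 to 23096206 per library limit the precision of genes at a few CPM.

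The 10 genes, the pathway lists and the markers were chosen with earlier results of these data known. Besides all 10 genes and Smarca4, up to 4 passing genes of each list with the lowest p were eligible to be named. Pearson's r was ranked over genes with a mean of at least 1 CPM, without symbols of Gm followed by digits or ending in Rik. Promoter sequences are from RefSeq (GRCm38.p6), and gene positions from GENCODE M21 on GRCm38. Alternatives were RLE scaling, library totals, DESeq2 1.42.0, other filters, each line alone, wild-type libraries only, each library left out, the pair of libraries numbered 1 of the SA-line wild type left out, and a replicate block.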

Additional observations from a re-analysis of the deposited data

Results flagged for a closer look

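Basal Dusp5 in the SA line had 1 library far from the others: wild-type replicate 1 held 7.92 CPM, whereas the other 3 libraries held 2.53 to 3.08 CPM. Its gap to the nearest library was 0.898 of the whole range, above the 95% critical value of Dixon's test for 4 samples. This was 1 of 20 groups examined, and chance gives about 1 in 20, but the groups share libraries: this library stood apart in markers and principal components and was the highest or lowest basal library of its line for all 10 genes. The response of Dusp4 to KCl differed between the lines, by 1.47 on the log2 scale in the SE line minus the SA line (edgeR, adjusted p = 0.00661), and its dependence on single libraries is given with the result.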

How the results depend on the processing

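Of 1066 values of the 10 genes under alternatives, 995 kept their direction and side of the threshold, 18 no longer passed, 40 newly passed and 13 changed sign; the cause was not tested. The number of the 10 genes called after KCl was 3 in the SA line and 8 in the SE line with each line fitted alone (all genes 166 and 1638, against 359 and 499), and 4 to 6 in each line without 1 library (all genes 210 to 365 in the SA line and 226 to 517 in the SE line). For the response difference it was 4 by DESeq2 (all genes 66, against 27), 4 with no filter (56), 0 between wild-type libraries (2), 3 without both number 1 libraries of the SA-line wild type, and 0 to 3 without 1 library (12 to 42). At basal between lines it was 8 to 9 without 1 library, and 5067 of all genes passed between wild-type libraries, against 8483. In the mutant comparisons it was 0 in every alternative; apart from the blocks below, all genes reached 64 (SA, KCl, DESeq2) and, with the SE line alone, 10 at basal, 31 after KCl and 4 in the response.

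Some values changed sign. Without 1 library, Dusp2 after KCl in the SA line ranged from -0.20 to 0.0033, the response difference of Dusp8 from -0.0387 to 0.13 and of Dusp10 from -0.21 to 0.30, and the basal line difference of Dusp14 from -0.37 to 0.0098. For SA against wild type, Dusp5 ranged from -1.43 to 0.21 at basal and from -0.13 to 1.51 in the response, and Dusp1 from -0.0408 to 1.27 in the response. Between wild-type libraries the response difference of Dusp8 was -0.0779. Without both of those number 1 libraries, the response difference of Dusp10 was -0.0325, the basal line difference of Dusp14 was 0.0088, and Dusp5 in SA against wild type was 0.21 at basal and -0.0661 in the response.

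With a replicate block, 9 of the 10 genes were called after KCl in each line (all genes 1040 in the SA line and 1771 in the SE line). All were higher except Dusp7 in the SA line, which was lower (-0.28, adjusted p = 0.0167) and in the SE line higher (0.24, adjusted p = 0.0481). The calls that the block added were Dusp7, Dusp8, Dusp14 and Dusp16 in the SA line and Dusp7, Dusp8, Dusp10 and Dusp16 in the SE line. It called 6 in the response difference (146) and 0 in the mutant comparisons that allow it (2 genes in the SE response). The labels do not say whether numbers mark pairs, so numbers were not taken as pairing. Deviations of equally numbered KCl and basal libraries correlated at 0.422 in SA, 0.67 in its wild type and -0.051 in SE. Those of SA and wild type correlated at -0.306 at basal and -0.282 after KCl. On the first principal component, equally numbered KCl and basal libraries lay close in SA (-35.3 and -36.2, -57.9 and -60.2). They did so too in its wild type (-78.4 and -80.0, -57.7 and -57.4). In SE the numbers did not match in this way (81.0 and 75.4, 76.6 and 82.7). If numbers mark cultures, the main fit counts differences between cultures as spread, which can hide a change. A block with crossed numbers, added after the data were seen, called 0 of the 10 genes, with 16 of all genes at basal and 853 after KCl. No paired analysis was possible because of the single wild-type library for SE against its wild type at basal and after KCl. With 6 residual degrees of freedom and few libraries, some intervals are wide, and level alone did not set their width. For the KCl change in the SE line the standard error was 0.190 for Dusp2 and 0.286 for Dusp10. It was 0.301 for Dusp1, whose CPM was above both in every library of that line.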
